A study of Rattus norvegicus with 14 samples.

Results

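The subject here is the response of PPFP cells to pioglitazone. Its members are the 6 RNA libraries of PPFP cells, 3 with pioglitazone and 3 without, of 14 samples in the series and 12 RNA libraries. PPFP cells are PCCL3 cells, a line of rat thyroid follicular cells, into which a human PAX8-PPARG fusion protein (PPFP), 3xMyc-tagged at the amino end, was introduced by stable transfection. Whether they are a clone or a pool is not given in the sources used here. The treated libraries came from PPFP cells kept for 16 hours with 1 μM pioglitazone in DMSO, and the untreated ones from PPFP cells kept as long with DMSO alone. The 6 libraries of EV cells, which are PCCL3 cells transfected with the empty vector and treated in the same 2 ways, are used only for comparison. All cells grew with thyrotropin, insulin and serum. The measurement was a count of sequenced read pairs on each gene, and the totals lay between 23724703 and 30915433 in the 6 PPFP libraries. Libraries that share a replicate number were taken to come from the same experiment, although the labels give only the number. Each untreated library was therefore compared with the treated library of its own number.

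PPARG is a nuclear receptor that binds DNA as a partner of RXR and is the main regulator of fat cell differentiation. Without a ligand it can hold corepressors at its target genes, and a ligand such as pioglitazone, a drug used in diabetes, exchanges them for coactivators. Its known targets store and release triglyceride, take up and burn fatty acids, and move glycerol across membranes. PAX8 is a transcription factor of the thyroid that drives thyroglobulin and the iodide transporter. The fusion protein arises by a chromosome translocation in a subset of thyroid carcinomas, and it carries the DNA-binding domains of both parents together with the ligand-binding domain of PPARG.

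The cells carried the defining markers of the thyroid, with 18 of 20 listed thyroid genes above the count filter and a summed level of 14310 to 15029 CPM (counts scaled to the same library size, with edgeR’s TMM factors) without and 11171 to 11348 CPM with pioglitazone. Markers of macrophages and leukocytes, of fibroblasts and of endothelium were scarce. Of 14 macrophage and leukocyte genes 3 passed the filter, none of the 3 changed, and their list summed to between 5.14 and 6.62 CPM without and between 5.82 and 6.08 CPM with pioglitazone. Ptprc, Itgam and Mrc1 were at 0 counts in all 6 libraries. The fibroblast list summed to between 20.4 and 34.5 CPM over the 6 libraries with Dcn, Lum and Postn at 0, and the endothelial list to between 1.90 and 3.07 CPM with Pecam1 and Cdh5 at 0. Most of the fibroblast sum was Pdgfra, which rose from a mean of 24.9 to 29.4 CPM (log2 fold change 0.25 ± 0.06). Col1a1 fell from 2.51 to 1.73 CPM (-0.53 ± 0.16), and the endothelial Vwf from 1.08 to 0.477 CPM (-1.16 ± 0.27). Without the pairing by number no gene of either list had an adjusted p under 0.05. One library stood apart in one gene: Rn45s, the precursor of ribosomal RNA, had 7107 CPM in untreated replicate 3 and between 685.9 and 826 CPM in the other 5 PPFP libraries. Its call as a repressed gene (log2 fold change -1.10 ± 0.35, adjusted p = 0.011) rested on that library, since the log2 fold change without replicate 3 was -0.10, and it is described no further. Without replicate 3, 147 genes were called up and 188 down. Here and elsewhere ± gives the SE of the fitted log2 fold change, whose spread is moderated across genes, so it can be smaller than the spread between pairs: Rn45s had log2 fold changes of -0.10, -0.10 and -3.37 in the 3 pairs.

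The parents of the fusion changed little. Pparg had 46.8, 59.8 and 54.4 CPM without and 50.7, 59.0 and 61.2 CPM with pioglitazone (log2 fold change 0.09 ± 0.05, adjusted p = 0.12), and it lay between 1.23 and 2.81 CPM in the EV libraries. Reads of the human fusion transcript that align to rat Pparg or rat Pax8 cannot be told apart from those of the rat genes. Pax8 had 678, 706 and 679.5 CPM without and 539.9, 554 and 539.6 CPM with pioglitazone, a drop that did not overlap between groups (log2 fold change -0.33 ± 0.03, adjusted p = 1.8e-08). In bulk RNA, fewer cells with a transcript and less of it in each cell cannot be told apart.

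Pioglitazone moved many genes in PPFP cells, most of them by a small amount. Of 10064 genes tested, 137 rose more than 2-fold (1.36%) and 185 fell more than 2-fold (1.84%) at an adjusted p under 0.05, and these are the genes referred to as called. With no fold limit, 2790 genes rose (27.7%) and 2408 fell (23.9%), and the median size of a change among them was 0.26 on the log2 scale. The 3 treated and the 3 untreated libraries did not overlap for 3431 genes (34.1%). These percentages are the background against which each gene group is to be read. The 2-fold limit cuts through a continuum, with Fads2 just inside it at a log2 fold change of -1.003 and Col16a1 just outside at -0.996. Changes above 4-fold were few, with 17 genes up and 10 down. The comparison pairs libraries of the same replicate number. Without that pairing 112 genes were called up and 132 down, while with no fold limit 768 genes rose (7.63%) and 718 fell (7.13%). Counts of list members without the pairing are given below beside those with it.

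**Figure D1:**
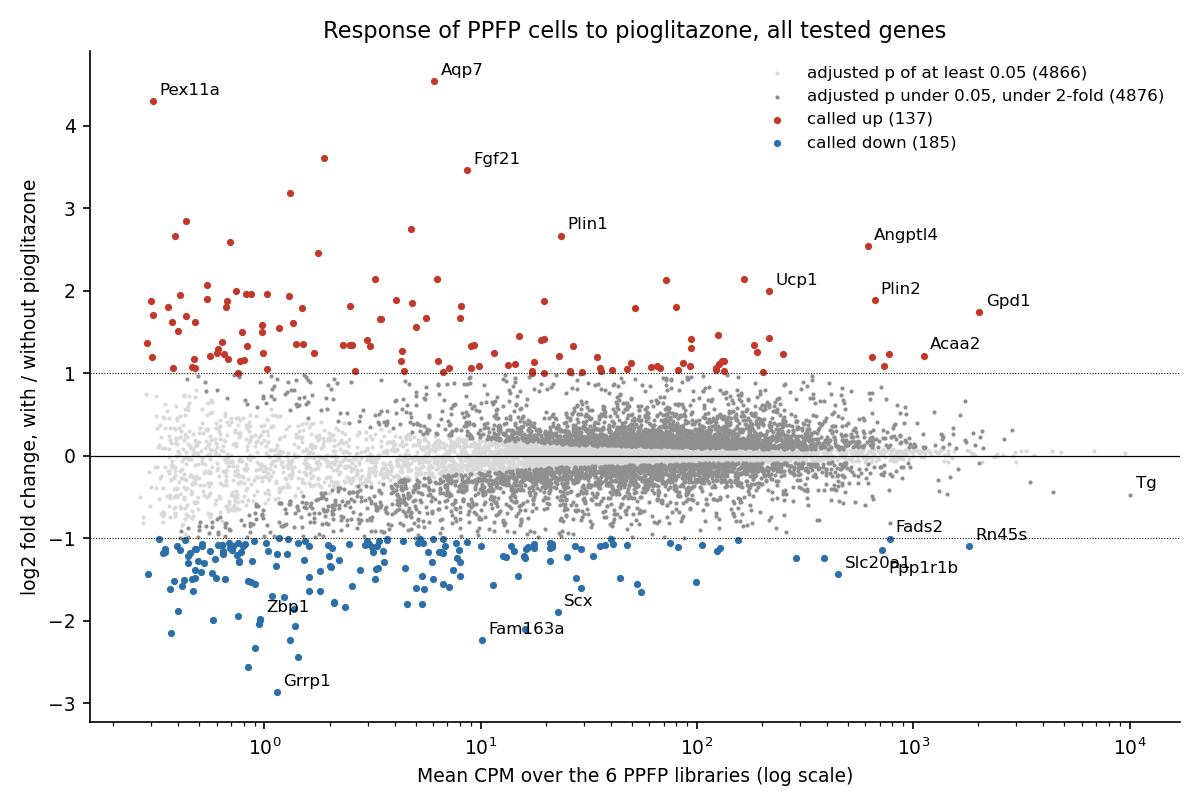
Each of the 10064 tested genes is a point, with its mean CPM over the 6 PPFP libraries on a log axis and its log2 fold change with versus without pioglitazone; dotted lines mark 2-fold. The 137 red points were called up and the 185 blue points called down. Aqp7 and Pex11a lie highest, while Angptl4, Plin2 and Gpd1 combine a large change with a high level.

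Most tested genes for proteins of lipid droplets rose. Of 8 tested genes of that list 6 rose and 1 fell (5 and 0 without the pairing), 3 passed the 2-fold limit, and the median was 0.89 on the log2 scale. Plin2, the droplet coat found in most cells, had 281, 284 and 282 CPM without and 1026, 1060 and 1042 CPM with pioglitazone (log2 fold change 1.89 ± 0.04, adjusted p = 6.1e-22). Plin1, the coat protein of fat cells that gates lipolysis, had 6.42, 6.91 and 5.83 CPM without and 32.9, 46.9 and 42.6 CPM with pioglitazone (log2 fold change 2.67 ± 0.08). Cidec, which fuses droplets, had 8.07, 7.80 and 8.11 CPM without and 18.3, 23.6 and 23.9 CPM with pioglitazone (log2 fold change 1.45 ± 0.08). In each of these genes the lowest treated library lay above the highest untreated one. Fitm2, which partitions new lipid into droplets, Plin5, which tethers droplets to mitochondria, and G0s2, an inhibitor of the lipase ATGL, rose by less, with log2 fold changes of 0.92 ± 0.04, 0.87 ± 0.09 and 0.81 ± 0.04. Bscl2, the droplet biogenesis factor seipin, had 0.08 ± 0.06 (adjusted p = 0.3), and Hsd17b11 fell slightly (-0.18 ± 0.04).

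Lipases and their regulators rose as well, with 9 of 13 tested genes up, none down and a median of 0.38, and 6 rose without the pairing. Angptl4, a secreted inhibitor of lipoprotein lipase, had 177, 185 and 182 CPM without and 1043, 1074 and 1030 CPM with pioglitazone (log2 fold change 2.54 ± 0.04, adjusted p = 4.2e-24). This was the smallest adjusted p of the genes named here, and the 3 pairs agreed closely. The enzymes of stepwise triglyceride breakdown all rose: Pnpla2, the ATGL lipase, from a mean of 217 to 403 CPM (0.90 ± 0.04), Lipe, hormone-sensitive lipase, from 29.1 to 53.3 CPM (0.87 ± 0.05), and Mgll, monoglyceride lipase, from 103 to 263 CPM (1.35 ± 0.04). Lipa, the lysosomal lipase, went from 70.2 to 120.5 CPM (0.78 ± 0.04). Abhd5, the coactivator of ATGL, had -0.10 ± 0.05 (adjusted p = 0.13).

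Genes that carry glycerol or build glycerol 3-phosphate rose too. The glycerol channel Aqp7 had 0.477, 0.517 and 0.507 CPM without and 15.0, 9.55 and 10.4 CPM with pioglitazone (log2 fold change 4.54 ± 0.16, adjusted p = 5.9e-17). It had no count in any EV library, where 3 counts would be at most 0.108 CPM. Gpd1, which makes glycerol 3-phosphate for triglyceride synthesis, had 947, 905 and 942 CPM without and 3336, 3002 and 3008 CPM with pioglitazone (log2 fold change 1.74 ± 0.04, adjusted p = 3.9e-21), and lay between 172 and 202 CPM in EV cells. Neither gene overlapped between the groups. In the whole list 9 of 12 tested genes rose, 1 fell, and the median was 0.52 on the log2 scale. Without the pairing 4 rose. Gk, glycerol kinase, and Pc, pyruvate carboxylase, rose by 0.48 ± 0.05 and 0.56 ± 0.03. The one gene that fell was another glycerol channel, Aqp9 (-0.47 ± 0.11).

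Genes for fatty acid oxidation in mitochondria rose at almost every step. Of 26 tested genes 21 rose (80.8%, against 27.7% of all genes), none fell, and the median log2 fold change was 0.43. Without the pairing 16 rose, against 7.63% of all genes. Of the 26 genes 19 did not overlap between the groups, against 34.1% of all genes. Cpt1a, which admits long-chain fatty acids, rose from 169.9 to 261 CPM (0.62 ± 0.04), and the carnitine carrier Slc25a20 from 78.2 to 134 CPM (0.78 ± 0.04). The dehydrogenases of successive chain lengths followed: Acadvl 0.65 ± 0.04, Acadl 0.82 ± 0.03, Acadm 0.86 ± 0.04 and Acads 0.42 ± 0.04. The 3 genes past 2-fold were Crat, Acaa2 and Acad11. Crat, carnitine acetyltransferase, had 114, 109 and 114 CPM without and 279, 264 and 262 CPM with pioglitazone (log2 fold change 1.26 ± 0.04, adjusted p = 1.5e-18). Acaa2, the thiolase of the last step, had 729, 634 and 663 CPM without and 1678, 1516 and 1489 CPM with pioglitazone (log2 fold change 1.21 ± 0.04). Acad11, an acyl-CoA dehydrogenase, went from 82.8 to 183 CPM (1.15 ± 0.04). Members that did not pass the test were Acadsb (-0.47 ± 0.20), Cpt1c (-0.35 ± 0.20), Acad10, Echs1 and Eci1.

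Peroxisomal oxidation was mixed, with 9 of 21 genes up, 4 down (6 and 3 without the pairing) and a median of 0.01 whose sign changed when libraries were scaled by size alone. Ech1, an isomerase of unsaturated fatty acids, rose from 72.5 to 142 CPM (0.97 ± 0.04), and so did the transporter Abcd3 (0.79 ± 0.04) and catalase, Cat (0.67 ± 0.03). Abcd2, a transporter of very long chains, went the other way with -0.88 ± 0.10. Pex11a, which drives peroxisome division, had 0, 1 and 1 counts without and 16, 21 and 11 counts with pioglitazone, a ratio of 22.4 with a 95% counting interval of 5.88 to 190.5 that covers counting error only. Uptake and activation of fatty acids moved less. There 5 of 12 tested genes rose, 2 fell, and the median was 0.06 on the log2 scale, and without the pairing 2 rose and none fell. Acsl1, the main acyl-CoA synthetase of fat, had 0.22 ± 0.05.

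**Figure D2:**
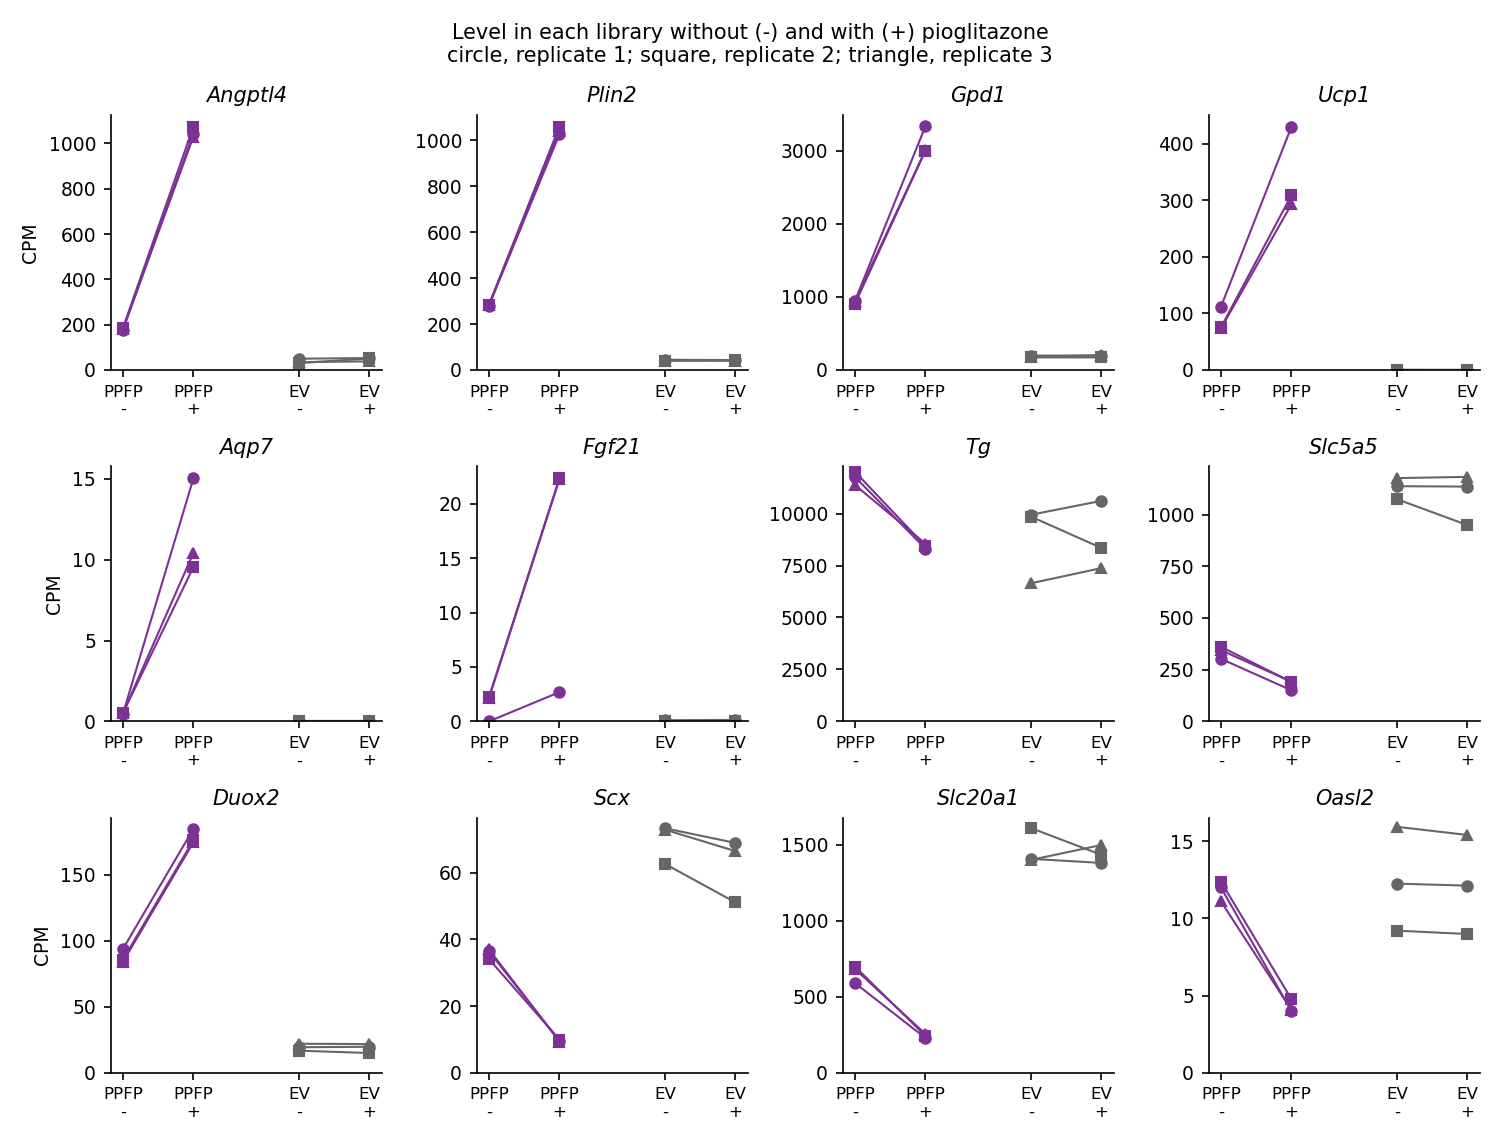
CPM on a linear axis from 0 for 12 genes in each library, with lines joining the untreated (-) and treated (+) library of one replicate number, PPFP cells in purple and EV cells in grey. In PPFP cells the 3 lines of a gene run in 1 direction, and Fgf21 in replicate 1 stays far below replicates 2 and 3 both before and after treatment.

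Some genes that steer mitochondria between fuels, or uncouple them, were strongly raised. In the list of pyruvate dehydrogenase control and uncoupling proteins 9 of 16 tested genes rose (56.2%, against 27.7% of all genes), 2 fell, and the median was 0.16, and without the pairing 6 rose and 2 fell. Pdk4, the kinase that shuts pyruvate dehydrogenase, had 33.2, 37.6 and 36.7 CPM without and 118, 131 and 126 CPM with pioglitazone (log2 fold change 1.80 ± 0.04, adjusted p = 9e-20), and Pdk1 rose too (0.62 ± 0.05), while Pdk3 fell (-0.31 ± 0.04), as did Pdp1, a phosphatase of pyruvate dehydrogenase (-0.69 ± 0.05). Ucp1, the uncoupling protein of brown fat, had 112, 75.2 and 73.3 CPM without and 429.6, 309 and 293 CPM with pioglitazone (log2 fold change 1.99 ± 0.04, adjusted p = 5e-22), and it was at or under 0.144 CPM in every EV library. Ucp3 of muscle had 1.83, 2.99 and 2.83 CPM without and 5.75, 8.36 and 8.45 CPM with pioglitazone (log2 fold change 1.56 ± 0.12). Ucp2, the broadly expressed member of the family, had -0.04 ± 0.04 (adjusted p = 0.3). Oxct1 and Bdh1, enzymes of ketone bodies, fell, with -0.63 ± 0.05 and -0.33 ± 0.06. Acot2, a mitochondrial acyl-CoA thioesterase, had 26.3, 26.9 and 27.0 CPM without and 101, 124 and 128 CPM with pioglitazone (log2 fold change 2.13 ± 0.06).

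The respiratory chain itself stayed close to its starting level. Complex I genes had a median of 0.01 on the log2 scale with 9 of 40 up and 1 down (1 and 0 without the pairing), and the ATP synthase list had 0.05 with 3 of 17 up and none down. No gene of complexes I to IV or of the ATP synthase passed 2-fold. The share of risen genes was 22.5% in complex I, 25% of 4 genes in complex II, 33.3% of 9 in complex III, 36.4% of 11 in complex IV and 17.6% in the ATP synthase list, against 27.7% of all genes, and no gene of complexes II to IV or of the ATP synthase fell. Without the pairing none of the genes of complexes II to IV or of the ATP synthase rose. In the citric acid cycle 8 of 19 genes rose and 1 fell (3 and 1 without the pairing), and for glycolysis 13 of 26 tested genes rose, 4 fell, and the median was 0.09 on the log2 scale. Without the pairing 2 glycolysis genes rose and 2 fell. Slc16a1, the monocarboxylate carrier that takes ketone bodies and lactate, had 58.3, 51.1 and 51.7 CPM without and 114, 106 and 110.5 CPM with pioglitazone (log2 fold change 1.04 ± 0.04), a call that was lost when libraries were scaled by size alone.

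Fgf21, a secreted hormone of fasting, had 0, 2.22 and 2.15 CPM without and 2.68, 22.3 and 22.3 CPM with pioglitazone (log2 fold change 3.46 ± 0.15, adjusted p = 4.7e-15). Replicate 1 was far lower than the other replicates in both groups, so the lowest treated value sat just above the highest untreated one, and without the pairing the adjusted p was 0.09. Wnt7a, a Wnt ligand, had 2.35, 2.66 and 3.00 CPM without and 6.54, 9.74 and 9.11 CPM with pioglitazone (log2 fold change 1.66 ± 0.12), and Lrp6, a Wnt coreceptor, had 137, 161 and 152 CPM without and 331, 364 and 354 CPM with pioglitazone (log2 fold change 1.23 ± 0.04). The Wnt list as a whole was split, with 8 of 26 genes up and 9 down (2 and 3 without the pairing). Stc2, the secreted stanniocalcin 2, rose from 23.2 to 48.3 CPM (1.06 ± 0.05).

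Genes for the synthesis of fatty acids and triglycerides went both ways. Over that list 14 of 30 tested genes rose, 10 fell, and the median was 0.04 on the log2 scale, and the sign of that median changed when libraries were scaled by size alone. Without the pairing 8 rose and 4 fell. The acyltransferase Agpat9, which opens triglyceride synthesis, had 19.6, 22.2 and 21.1 CPM without and 39.8, 53.6 and 51.5 CPM with pioglitazone (log2 fold change 1.20 ± 0.06). Dgat2, which closes it, rose from 188 to 273 CPM (0.54 ± 0.04), and Agpat3 rose from 134 to 269 CPM (1.01 ± 0.04), close enough to the 2-fold limit to fall under it at 0.98 without replicate 2. The fatty acid synthesis enzymes Acly and Acaca had -0.03 ± 0.04 and 0.03 ± 0.04, with adjusted p of 0.44 and 0.47. Elovl3, an elongase of brown fat, rose from a very low level, with 0.22, 0.111 and 0.253 CPM without and 0.567, 1.64 and 1.36 CPM with pioglitazone (log2 fold change 2.58 ± 0.37, adjusted p = 2.7e-06). Desaturases and elongases of polyunsaturated fatty acids went both ways. The desaturase Fads2 had 1097, 972 and 1045 CPM without and 513, 511 and 525 CPM with pioglitazone (log2 fold change -1.003 ± 0.04, adjusted p = 5.2e-16) and Fads1 fell from 1001 to 566 CPM (-0.82 ± 0.04). The related Fads3 rose from 117 to 157 CPM (0.43 ± 0.04). Of the elongases of this route, Elovl2 fell from 34.6 to 22.0 CPM (-0.65 ± 0.06, with an adjusted p of 0.16 without the pairing), while Elovl5 rose from 218 to 292 CPM (0.43 ± 0.03). The stearoyl-CoA desaturase rows disagreed, with Scd1 up from 231 to 452 CPM (0.96 ± 0.03) and Scd down from 3.24 to 0.937 CPM (-1.79 ± 0.18), and since these copies are alike in sequence the split of reads between them is uncertain.

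Genes of cholesterol synthesis moved little in PPFP cells. In cholesterol synthesis and uptake 2 of 24 genes rose and 8 fell, none of them past 2-fold, and without the pairing 1 rose and none fell. The median was -0.05. In EV cells the same list had a median of -0.28, with no member at an adjusted p under 0.05. Nr1h3, the sterol sensor LXR alpha, had 3.85, 6.43 and 5.49 CPM without and 8.88, 15.8 and 15.2 CPM with pioglitazone (log2 fold change 1.34 ± 0.09, adjusted p = 1.6e-11), and Abcg1, an LXR target that exports cholesterol, had 38.5, 41.1 and 38.2 CPM without and 72.3, 87.7 and 87.9 CPM with pioglitazone (log2 fold change 1.07 ± 0.05). Among other LXR targets Lpcat3, which remodels phospholipids, rose (0.75 ± 0.03). Abcg5 fell, with 3.12, 4.70 and 4.18 CPM without and 1.02, 1.46 and 2.09 CPM with pioglitazone (log2 fold change -1.39 ± 0.16), as did its partner Abcg8 (-0.87 ± 0.10), and Abca1 had -0.07 ± 0.04 (adjusted p = 0.21).

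Genes of retinoid metabolism and retinoid receptors leaned upward, with 11 of 17 tested genes up, 1 down and a median of 0.16, and 4 rose without the pairing. Aldh1a1, which oxidises retinal to retinoic acid, had 499, 446 and 461 CPM without and 1044, 996 and 947 CPM with pioglitazone (log2 fold change 1.09 ± 0.04, adjusted p = 4.7e-17), and lay between 29.4 and 41.8 CPM in EV cells. Dhrs9, a retinol dehydrogenase, had 106, 121 and 123 CPM without and 290.2, 328 and 322 CPM with pioglitazone (log2 fold change 1.43 ± 0.04, adjusted p = 9.9e-20), with at most 0.179 CPM in any EV library. Adh1, an alcohol dehydrogenase, and Rarb, a retinoic acid receptor, also passed 2-fold at low levels, from 0.157 to 0.556 CPM (1.81 ± 0.45) and from 0.502 to 1.01 CPM (1.00 ± 0.28). Without the pairing the adjusted p of Adh1 was 0.07. Retsat, retinol saturase, rose from 146 to 245 CPM (0.75 ± 0.04). The one gene that fell was the receptor Rarg (-0.45 ± 0.06). Among PPARs, RXRs and their coregulators 13 of 21 genes rose and 1 fell, none past 2-fold, and 5 rose without the pairing. Cebpa and Cebpb, factors of fat cell differentiation that act with PPARG, rose from 49.8 to 94.0 CPM (0.92 ± 0.04) and from 52.5 to 99.9 CPM (0.93 ± 0.04), and the coactivators Ppargc1b and Ppargc1a rose by 0.63 ± 0.10 and 0.40 ± 0.07. The partner Rxra had -0.16 ± 0.10 (adjusted p = 0.19), and Ppard had -0.01 ± 0.04 (adjusted p = 0.79).

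Promoter sequence was set beside these results because PPARG with RXR binds a direct repeat of AGGTCA with 1 base between. RefSeq promoters of the GRCr8 assembly, from 250 bases before to 50 after the gene start, were at hand for 105 of the 137 genes called up, 135 of the 185 called down and 8214 of all tested. A repeat with at most 2 mismatches in its 12 bases, on either strand, was found in 8 of the 105 (7.62%), 1 of the 135 (0.741%) and 225 of the 8214 (2.74%). With at most 3 mismatches the shares were 24.8%, 20.7% and 19.3%, and with at most 1 mismatch no called gene held a match. These are descriptions of short windows, and no binding is read from them. The 4 windows shown belong to induced genes described above, and the fifth is the single match among the genes called down, Acpt, an acid phosphatase gene (log2 fold change -1.28 ± 0.39) that was picked after its match was seen. Each is read 5′ to 3′ on the strand of its gene, with up to 30 bases on either side, and capitals mark the match.
Crat: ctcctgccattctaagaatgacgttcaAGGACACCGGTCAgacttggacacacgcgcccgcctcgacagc
Ucp3: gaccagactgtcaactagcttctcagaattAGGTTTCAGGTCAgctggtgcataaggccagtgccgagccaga
Agpat3: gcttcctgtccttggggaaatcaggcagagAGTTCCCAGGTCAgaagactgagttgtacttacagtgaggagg
Dhrs9: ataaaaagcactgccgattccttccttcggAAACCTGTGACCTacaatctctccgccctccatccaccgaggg
Acpt: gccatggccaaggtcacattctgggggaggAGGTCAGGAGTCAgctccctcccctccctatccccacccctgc
The window of Crat is at chr3:34087280-34087349, minus strand, with the match at positions -223 to -211 from the gene start, and that of Ucp3 is at chr1:164227823-164227895, plus strand, with the match at -57 to -45. The Agpat3 window is at chr20:10384006-10384078, plus strand, with the match at -145 to -133. For Dhrs9 it is at chr3:74555527-74555599, plus strand, with the match at -128 to -116, where it reads on the opposite strand. Acpt, named Acp4 in RefSeq, has its window at chr1:103881333-103881405, minus strand, with the match at -219 to -207.

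Markers of fat cells rose, with one exception, where they had enough counts to be tested. Of 17 listed adipocyte markers 7 passed the count filter, of which 6 rose and 1 fell, and the list summed to between 801 and 822 CPM without and between 1135 and 1158 CPM with pioglitazone. Beside Plin1, Cidec and Aqp7 they were Lipe, Cebpa and Cfd, the complement factor adipsin, which rose from 710.2 to 922 CPM (0.38 ± 0.04). Adipoq, the hormone adiponectin, was the one that fell, with 4.33, 4.62 and 4.56 CPM without and 1.85, 2.95 and 2.38 CPM with pioglitazone (log2 fold change -0.91 ± 0.14, adjusted p = 7.7e-06). Other markers stayed near 0. Lep and Retn had no count in any PPFP library, Fabp4 had 0, 0 and 0 counts without and 5, 1 and 2 with pioglitazone, and Pck1 had 0, 0 and 0 without and 4, 6 and 3 with it. Cd36 was at 0 without and had 1, 2 and 1 counts with the drug, and Lpl had 2 counts in all.

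Genes of the amino acid stress response rose pair by pair, on top of a difference between replicate numbers. Of 50 tested genes 45 rose (90%), 2 fell, and the median was 0.51. In EV cells the same list had a median of 0.13, with no member at an adjusted p under 0.05. Atf4, the transcription factor at the head of this response, had 147, 329 and 359.8 CPM without and 252, 514 and 513 CPM with pioglitazone (log2 fold change 0.64 ± 0.04, adjusted p = 1e-12). Replicate 1 lay lower than replicates 2 and 3 in both groups, so the groups overlapped although each pair rose. Of the 50 genes 10 did not overlap between the groups, a smaller share than the 34.1% of all genes. Without the pairing 7 rose and 1 fell, against 7.63% and 7.13% of all genes. Past 2-fold were Fgf21, Stc2 and the amino acid transporter Slc38a1, from 0.586 to 1.39 CPM (1.25 ± 0.27). Targets of Atf4 that make or import amino acids followed, with Asns, asparagine synthetase, from 67.0 to 104 CPM (0.63 ± 0.04), Phgdh of serine synthesis from 714 to 1024 CPM (0.52 ± 0.04), and the transporter Slc38a2 from 119.5 to 199.7 CPM (0.74 ± 0.04). The regulators Trib3, Ddit3 and Nupr1 had 0.86 ± 0.05, 0.73 ± 0.06 and 0.99 ± 0.09. Of the transfer RNA synthetases Cars rose by 0.69 ± 0.04 and Yars by 0.61 ± 0.04, while Gars had 0.01 ± 0.04 (adjusted p = 0.79). The genes that fell were Cbs, an enzyme of cysteine synthesis, with 49.2, 55.5 and 48.8 CPM without and 20.0, 27.1 and 25.2 CPM with pioglitazone (log2 fold change -1.09 ± 0.06), and Ddit4 (-0.39 ± 0.06). Chaperones and genes of the unfolded protein response went both ways, with 18 of 56 up and 19 down (3 and 1 without the pairing).

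Many cell cycle genes rose by a small amount within pairs. Of 64 tested genes 47 rose (73.4%), 1 fell and the median was 0.18, with none past 2-fold. Without the pairing none passed the test. Only 1 of the 64, Cdk2, did not overlap between the groups, a smaller share than the 34.1% of all genes. Cdk2, the kinase of the entry into S phase, had 339.7, 219.7 and 211 CPM without and 547, 374 and 363 CPM with pioglitazone (log2 fold change 0.75 ± 0.03), followed in size by the spindle kinase Ttk (0.51 ± 0.05) and the phosphatase Cdc25a (0.46 ± 0.04). Mki67, the proliferation marker, rose from 241 to 282 CPM (0.24 ± 0.04), and Pcna had 0.08 ± 0.04 (adjusted p = 0.096). Ccne1 was the one that fell (-0.17 ± 0.07). In EV cells the same list had a median of -0.13, with no member at an adjusted p under 0.05. Proteasome subunits were nearly still, with 7 of 39 up and 1 down (none without the pairing).

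**Figure D3:**
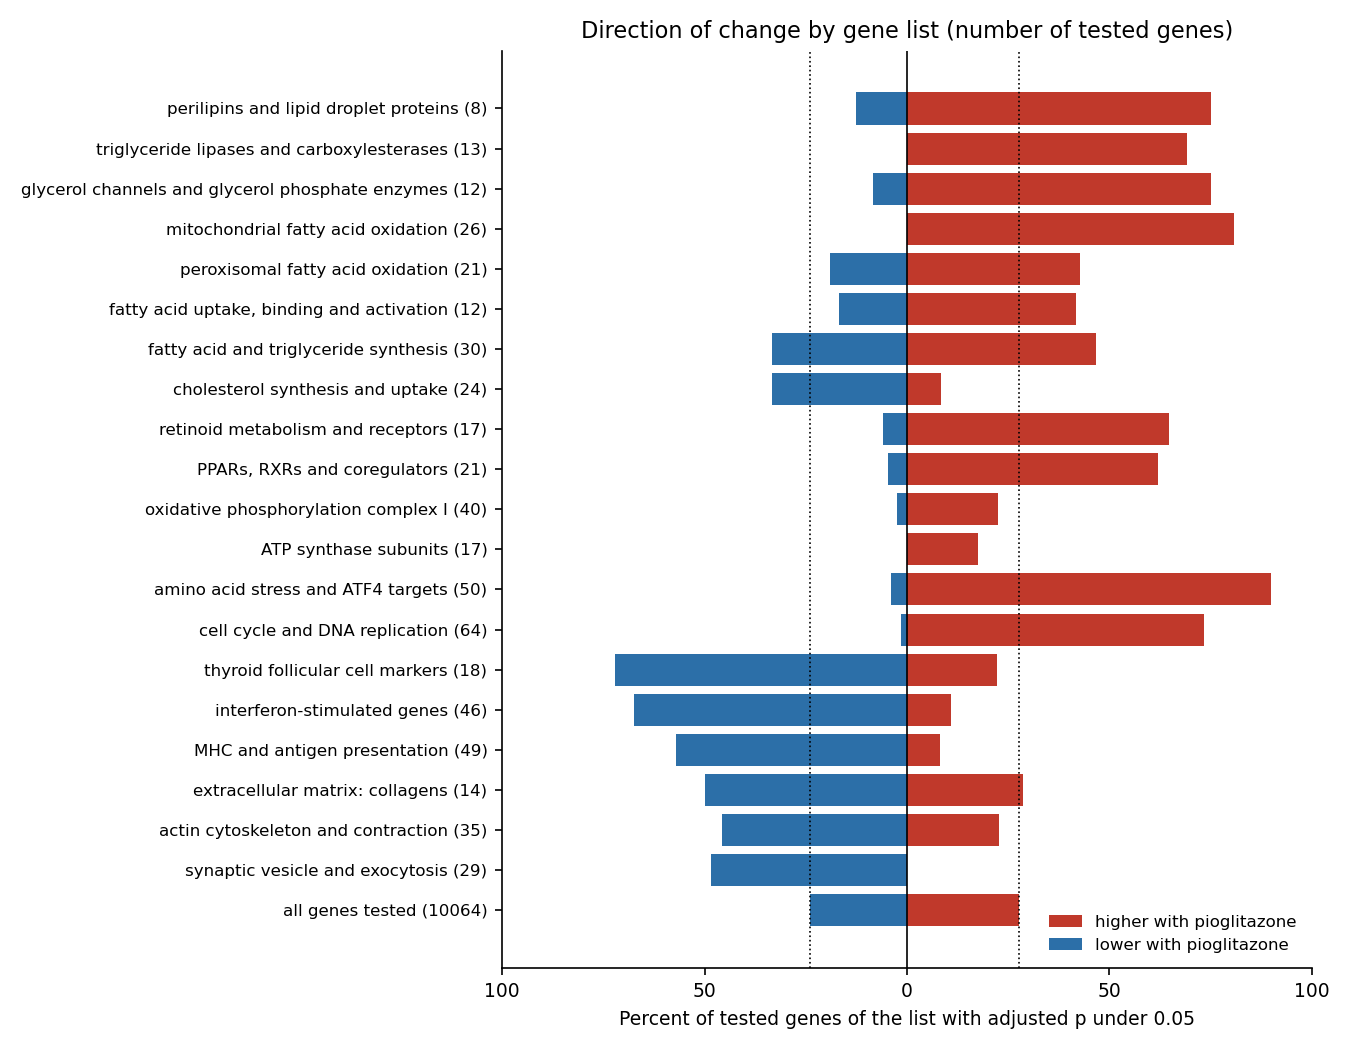
For 20 gene lists and all tested genes, the percent of tested genes that rose (red, to the right) or fell (blue, to the left) at an adjusted p under 0.05; the number of tested genes is in parentheses and dotted lines mark all genes, 27.7% and 23.9%. Amino acid stress genes (90%), mitochondrial fatty acid oxidation (80.8%) and the cell cycle (73.4%) lie far to the right, and thyroid markers (72.2%) and interferon-stimulated genes (67.4%) far to the left.

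Most thyroid genes fell, while the oxidase Duox2 and its maturation factor rose. Of 18 tested markers 13 fell (72.2%, against 23.9% of all genes) and 4 rose, with a median of -0.34. Without the pairing 8 fell and 4 rose. Thyroglobulin, Tg, the precursor of the hormone, had 11760, 12012 and 11376 CPM without and 8317, 8436 and 8556 CPM with pioglitazone (log2 fold change -0.47 ± 0.03, adjusted p = 6e-12). The iodide transporter Slc5a5 had 302, 361 and 344 CPM without and 150.2, 190.4 and 192 CPM with pioglitazone (log2 fold change -0.92 ± 0.04, adjusted p = 9e-16). Neither overlapped between the groups. Dio1, which activates the hormone, fell from 192 to 111 CPM (-0.79 ± 0.04), and the transcription factors Nkx2-1 and Foxe1 fell by less (-0.34 ± 0.04 and -0.30 ± 0.04). Iyd, which recovers iodide, fell at a low level from 1.29 to 0.446 CPM (-1.53 ± 0.28), as did the anion exchanger Slc26a4 (-1.06 ± 0.25), whose adjusted p without the pairing was 0.12. Tshr, the thyrotropin receptor, was nearly level at -0.14 ± 0.03. The genes that rose make hydrogen peroxide or carry monocarboxylates. Duox2, the oxidase, had 93.9, 85.8 and 84.1 CPM without and 185, 176 and 175 CPM with pioglitazone (log2 fold change 1.03 ± 0.04, adjusted p = 2.3e-16), and its maturation factor Duoxa2 had 92.8, 76.0 and 71.8 CPM without and 182, 171 and 162 CPM with pioglitazone (log2 fold change 1.11 ± 0.04). Duoxa1 rose from 12.8 to 22.3 CPM (0.80 ± 0.07) while its partner Duox1 had -0.06 ± 0.06 (adjusted p = 0.39). Slc5a8 rose from 349.7 to 581 CPM (0.74 ± 0.03).

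**Figure D4:**
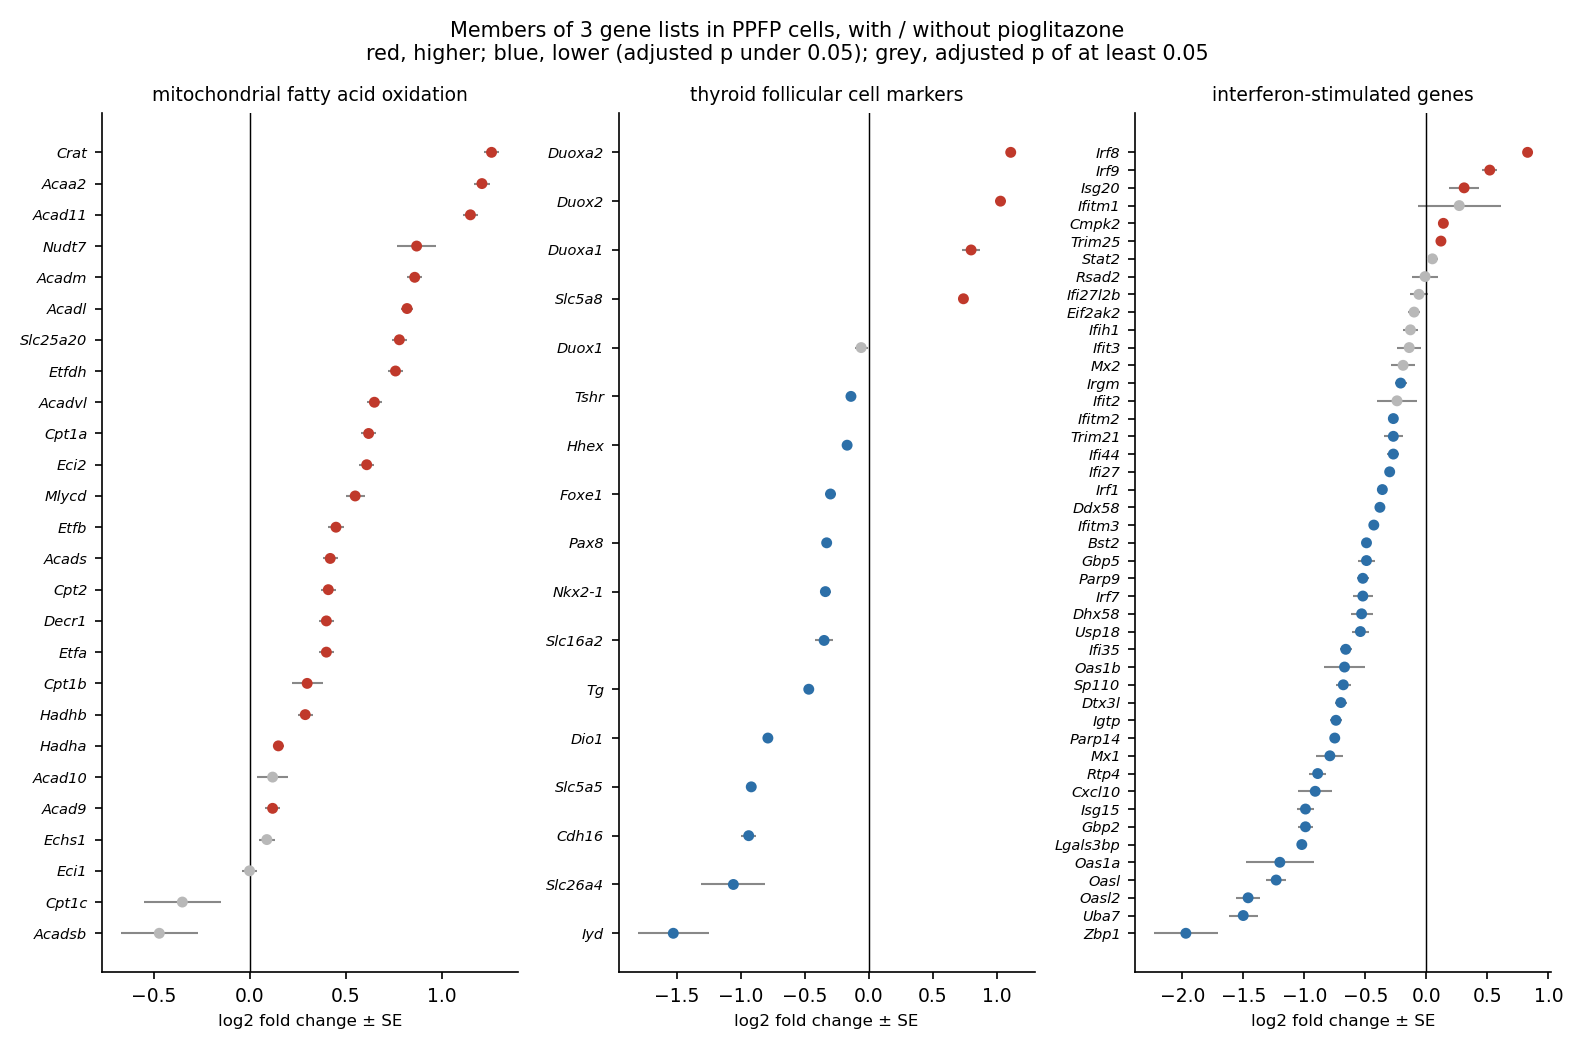
Log2 fold change with versus without pioglitazone in PPFP cells, with its SE as a bar, for tested members of 3 lists (all but 1 in each of the thyroid and interferon lists); red rose, blue fell, grey did not pass the test. Of 26 mitochondrial oxidation genes 21 are red and none blue; the thyroid list is mostly blue with 4 red, and the interferon list mostly blue with 5 red.

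Most interferon-stimulated genes fell, with 31 of 46 down (67.4%, against 23.9% of all genes), 5 up and a median of -0.46. Without the pairing 23 fell and 1 rose. Oasl2, of the oligoadenylate synthetase family, had 12.0, 12.4 and 11.1 CPM without and 4.01, 4.78 and 4.07 CPM with pioglitazone (log2 fold change -1.46 ± 0.10, adjusted p = 7.7e-12), and its relative Oasl fell from 18.4 to 7.80 CPM (-1.23 ± 0.08). Uba7, which attaches ISG15 to proteins, had 7.96, 9.87 and 8.87 CPM without and 2.08, 3.84 and 3.54 CPM with pioglitazone (2.82-fold lower, adjusted p = 2.2e-10), and Isg15 itself fell from 24.6 to 12.3 CPM (-0.99 ± 0.07). Zbp1, a sensor of nucleic acid, had 1.80, 1.29 and 1.48 CPM without and 0.454, 0.298 and 0.398 CPM with pioglitazone (log2 fold change -1.97 ± 0.26). The chemokine Cxcl10 fell from 4.06 to 2.15 CPM (-0.91 ± 0.14) and the master regulator Irf7 from 24.1 to 16.9 CPM (-0.52 ± 0.08). Stat2, which carries the interferon signal, had 0.05 ± 0.05 (adjusted p = 0.49), and Irf9 of the same complex rose (0.52 ± 0.06), as did Irf8, from 511 to 906 CPM (0.83 ± 0.04). Lgals3bp, a secreted binding protein of galectin, had 194, 216 and 214 CPM without and 93.6, 104 and 110.0 CPM with pioglitazone (log2 fold change -1.02 ± 0.04).

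Many genes of antigen presentation fell, the most a class II chain, RT1-Da, and the class II activator Ciita. Of 49 tested genes of that list 28 fell (57.1%, against 23.9% of all genes), 4 rose and the median was -0.28. Without the pairing 13 fell and 2 rose, against 7.13% and 7.63% of all genes. Ciita, the master activator of class II genes, had 9.39, 9.06 and 8.82 CPM without and 5.18, 3.54 and 3.51 CPM with pioglitazone (log2 fold change -1.16 ± 0.11, adjusted p = 4.9e-09). RT1-Da, a class II alpha chain, had 23.0, 20.9 and 21.5 CPM without and 8.50, 7.83 and 7.42 CPM with pioglitazone (log2 fold change -1.46 ± 0.07, adjusted p = 5.5e-14), while RT1-Ba fell from 22.1 to 11.8 CPM (-0.91 ± 0.07), the invariant chain Cd74 from 69.7 to 43.9 CPM (-0.67 ± 0.05), and Ctss, the cathepsin that trims it, from 1.93 to 0.925 CPM (-1.05 ± 0.21). The genes that rose were B2m, the class I light chain, with 0.28 ± 0.04, the peptide transporter subunits Tap1 and Tap2 with 0.20 ± 0.04 and 0.25 ± 0.04, and Psmb8 with 0.18 ± 0.04. RT1 genes form a multigene family, so the division of reads among its rows is uncertain. Chemokine and cytokine genes had 3 of 20 up and 7 down (35%, against 23.9% of all genes), and 2 and 4 without the pairing. Among those that fell was Tnfsf10, the death ligand TRAIL, from 4.13 to 1.96 CPM (-1.07 ± 0.15). Complement genes had 2 of 16 up and 6 down (37.5%, against 23.9% of all genes), and 2 and 2 without the pairing. Masp1, a protease of the lectin pathway, fell from 8.26 to 2.69 CPM (-1.61 ± 0.12). Of the secreted phospholipases A2, Pla2g5 had 6.49, 6.76 and 8.02 CPM without and 2.04, 2.24 and 1.85 CPM with pioglitazone (log2 fold change -1.79 ± 0.13) and Pla2g2d fell from 2.75 to 0.876 CPM (-1.64 ± 0.20), while Pla2g1b rose (0.37 ± 0.07). Il12rb1, a receptor chain of interleukin 12, fell from 2.23 to 0.527 CPM (-2.06 ± 0.24), and the adhesion molecule Vcam1 rose from 0.505 to 1.44 CPM (adjusted p = 2.7e-05).

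Matrix and adhesion genes went both ways. Of 14 collagens 7 fell and 4 rose, with a median of -0.40, and without the pairing 1 fell and 2 rose. Prelp, a leucine-rich proteoglycan of connective tissue, had 143, 154 and 144 CPM without and 49.9, 52.1 and 50.3 CPM with pioglitazone (log2 fold change -1.53 ± 0.04, adjusted p = 4.5e-19). Scx, scleraxis, a transcription factor of tendon that drives matrix genes, had 36.4, 34.1 and 37.0 CPM without and 9.60, 9.96 and 9.34 CPM with pioglitazone (log2 fold change -1.89 ± 0.07, adjusted p = 5.6e-17). Loxl3, which cross-links collagen, had 36.2, 34.9 and 34.8 CPM without and 13.4, 15.4 and 16.3 CPM with pioglitazone (log2 fold change -1.23 ± 0.07). Col4a1, a collagen of basement membranes, had -0.08 ± 0.04 (adjusted p = 0.091), while Col4a3 fell from 10.8 to 4.12 CPM (-1.38 ± 0.12) and Col7a1, of anchoring fibrils, rose from 19.4 to 33.3 CPM (0.82 ± 0.09). Both Col4a3 and Col7a1 overlapped between the groups, and their adjusted p without the pairing was 0.14 and 0.4. In the integrin list 5 of 15 genes rose and 5 fell (2 and 2 without the pairing). Itgb4, the integrin of hemidesmosomes, had 28.8, 42.2 and 40.5 CPM without and 14.4, 17.9 and 19.6 CPM with pioglitazone (log2 fold change -1.10 ± 0.06). Itga8 fell too, from 1.35 to 0.457 CPM (-1.55 ± 0.26). Itga7, a laminin receptor, rose from 58.7 to 126 CPM (1.09 ± 0.05), and the leukocyte integrins Itgad and Itgal rose from 0.288 to 1.05 CPM (1.87 ± 0.33) and from 0.478 to 1.06 CPM (1.15 ± 0.28), the last with an adjusted p of 0.051 without the pairing. Of 35 genes of the actin cytoskeleton 16 fell and 8 rose, none past 2-fold, and 5 fell and 5 rose without the pairing. Gjb1, a gap junction protein, fell from 23.9 to 11.5 CPM (-1.07 ± 0.07), while Epcam, an epithelial adhesion molecule, rose at a low level from 0.354 to 0.871 CPM (1.29 ± 0.33), with an adjusted p of 0.12 without the pairing.

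In the list of synaptic vesicle and exocytosis genes 14 of 29 fell (48.3%, against 23.9% of all genes), none rose and 15 did not pass the test, with a median of -0.19, and 5 fell without the pairing. Syt5, a calcium sensor of exocytosis, had 9.43, 9.32 and 9.25 CPM without and 3.82, 4.55 and 4.70 CPM with pioglitazone (log2 fold change -1.09 ± 0.10, adjusted p = 4.2e-09), and Rab3a, a vesicle GTPase, fell from 41.9 to 23.6 CPM (-0.82 ± 0.06).

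Outside that list, 4 further lowered genes are given singly. Ngfr, the low-affinity receptor of neurotrophins, had 3.67, 3.70 and 3.67 CPM without and 0.756, 1.27 and 1.06 CPM with pioglitazone (log2 fold change -1.83 ± 0.17, adjusted p = 4.9e-09). Oprk1, the kappa opioid receptor, had 4.44, 2.44 and 2.87 CPM without and 1.62, 0.522 and 0.729 CPM with pioglitazone (log2 fold change -1.77 ± 0.18). Dpysl2, a binding protein of tubulin in growing axons, had 606, 509.6 and 521 CPM without and 256, 224 and 213 CPM with pioglitazone (log2 fold change -1.24 ± 0.03, adjusted p = 4.2e-19). Ppp1r1b, the phosphatase inhibitor DARPP-32, had 1087, 937 and 937 CPM without and 442, 452 and 441 CPM with pioglitazone (log2 fold change -1.14 ± 0.04, adjusted p = 2.8e-16). Axon guidance genes had no common direction, with 15 of 38 up and 17 down (8 and 6 without the pairing). Nrp1, a receptor of semaphorins, rose from 0.671 to 2.04 CPM (1.60 ± 0.21), and without the pairing its adjusted p was 0.078.

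Further genes with many counts also changed past 2-fold. Slc20a1, a phosphate transporter, had 589.9, 698 and 682 CPM without and 229, 243 and 255 CPM with pioglitazone (log2 fold change -1.43 ± 0.04, adjusted p = 9e-20). Gpx2, a glutathione peroxidase of epithelia, had 451, 356 and 395 CPM without and 206, 152 and 155 CPM with pioglitazone (log2 fold change -1.23 ± 0.04), within an antioxidant list in which 9 of 45 genes rose and 16 fell (4 and 8 without the pairing). Smpd3, a neutral sphingomyelinase, had 181, 175 and 170.2 CPM without and 72.4, 85.4 and 84.7 CPM with pioglitazone (log2 fold change -1.12 ± 0.05). In these 3 genes each treated library lay below each untreated one. On the raised side, Surf4, a cargo receptor of the endoplasmic reticulum, had 407, 492 and 486 CPM without and 965, 1157 and 1136 CPM with pioglitazone (log2 fold change 1.24 ± 0.04, adjusted p = 1.8e-18). Tsc22d1, a transcription regulator, had 320.1, 428 and 435 CPM without and 802, 961 and 932 CPM with pioglitazone (log2 fold change 1.20 ± 0.04). Phospho1, a phosphatase of phosphocholine and phosphoethanolamine, had 62.4, 62.4 and 57.9 CPM without and 285, 263 and 255 CPM with pioglitazone (log2 fold change 2.14 ± 0.04, adjusted p = 3.6e-22). Mertk, a receptor tyrosine kinase, had 68.1, 46.2 and 49.6 CPM without and 161, 119 and 121 CPM with pioglitazone (log2 fold change 1.30 ± 0.04), and Plk3, a polo-like kinase, had 12.7, 14.7 and 14.7 CPM without and 28.1, 36.3 and 32.3 CPM with pioglitazone (log2 fold change 1.20 ± 0.06).

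Among genes with fewer counts the changes could be larger. The anion transporter Slc26a9 had 1.39, 2.92 and 2.70 CPM without and 6.80, 11.9 and 12.1 CPM with pioglitazone (log2 fold change 2.14 ± 0.11, adjusted p = 1.2e-13). The phosphatase Ptp4a3 had 0.55, 1.41 and 1.69 CPM without and 4.12, 6.12 and 5.57 CPM with pioglitazone (log2 fold change 2.14 ± 0.17), and the solute carrier Slc25a34 of mitochondria rose from 0.283 to 3.49 CPM (3.60 ± 0.23). Slc47a1, an exporter of organic cations, rose from 1.23 to 8.30 CPM (2.74 ± 0.14), and Endou, an endoribonuclease, from 0.258 to 2.37 CPM (3.18 ± 0.26). Bcl2l14, a member of the BCL2 family, had 1.28, 1.85 and 2.07 CPM without and 4.61, 7.95 and 6.62 CPM with pioglitazone (log2 fold change 1.89 ± 0.14). In the other direction, Arhgef19, an exchange factor of small GTPases, had 7.67, 8.76 and 8.53 CPM without and 2.38, 2.39 and 2.38 CPM with pioglitazone (log2 fold change -1.80 ± 0.12, adjusted p = 4.6e-12), while the keratin Kb23 had 2.97, 2.07 and 1.44 CPM without and 0.794, 0.485 and 0.497 CPM with pioglitazone (log2 fold change -1.85 ± 0.22). Fam163a fell from 16.8 to 3.55 CPM (-2.24 ± 0.09), Grrp1 from 2.01 to 0.27 CPM (-2.86 ± 0.27), the peptide transporter Abcb9 from 2.42 to 0.439 CPM (-2.44 ± 0.23) and Fam19a5 from 2.17 to 0.458 CPM (-2.24 ± 0.23). Bmf, a proapoptotic member of the BCL2 family, fell from 22.3 to 10.1 CPM (-1.13 ± 0.07), the calcium-binding protein S100a6 from 24.2 to 11.1 CPM (-1.11 ± 0.08) and Pex5l, a relative of the peroxisomal import receptor, from 7.61 to 2.48 CPM (-1.60 ± 0.13). Etv4, an ETS factor downstream of MAP kinase, rose from 8.49 to 18.2 CPM (1.10 ± 0.08), and Lfng, which modifies Notch receptors, fell from 6.91 to 3.31 CPM (-1.06 ± 0.11). Ion channel genes had 20 of 79 up and 28 down (6 and 8 without the pairing), with Trpm3, a cation channel, at 7.49, 9.21 and 8.70 CPM without and 3.02, 3.77 and 3.58 CPM with pioglitazone (log2 fold change -1.29 ± 0.11). The libraries were not made to keep strand, so reads of overlapping genes on opposite strands cannot be told apart.

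Levels in EV cells are given beside these as a description, with no test of the difference between untreated lines. Of the 137 genes called up, 90 were lower in all 6 EV libraries than in every untreated PPFP library, 12 were higher in all 6 and 35 overlapped. Of the 185 called down, 57 were lower, 60 were higher and 68 overlapped. The same counts were not made over all tested genes, so no trait particular to the called genes is read from them. The induced genes Angptl4, Plin2 and Duox2 lay between 30.2 and 52.7 CPM, between 39.8 and 44.6 CPM and between 15.0 and 22.0 CPM over the 6 EV libraries, below every untreated PPFP library. The repressed genes Scx and Slc20a1 lay between 51.1 and 73.3 CPM and between 1379 and 1608 CPM there, above every untreated PPFP library. Other genes did not share these orders. The repressed Gpx2 and S100a6 lay between 80.3 and 164 CPM and between 1.37 and 2.28 CPM in EV cells, below every untreated PPFP library, and the induced Phospho1 and Acot2 lay between 53.9 and 75.0 CPM and between 18.6 and 28.7 CPM, overlapping the untreated PPFP libraries. Tg lay between 6647 and 10614 CPM, below the untreated and overlapping the treated PPFP libraries.

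In EV cells the same treatment changed few genes. Of 10146 genes tested none passed 2-fold by edgeR or by DESeq2, and 1 (0.00986%) had an adjusted p under 0.05 with edgeR at any fold, Abca1 with a log2 fold change of 0.53; DESeq2 gave 8 such genes, and 605 had an unadjusted p under 0.05 with edgeR. That count rested on replicate 2, since without it 227 genes passed at any fold and 1 of them past 2-fold, against 12 without replicate 3 and 1 without replicate 1. Of the 137 genes called up in PPFP cells, 76 had enough counts to be tested in EV cells, and there the median was 0.00, from a lowest value of -0.60 to a highest of 0.68. In 33 of the 137 no EV library had more than 3 counts. Of the 185 genes called down, 168 were tested in EV cells, where the values ran from -0.64 to 0.70 around a median of -0.07. The difference in response between the lines was tested as an interaction over the 12 libraries: of 10482 genes, 102 (0.973%) were more than 2-fold more positive and 167 (1.59%) more than 2-fold more negative in PPFP cells. Of the genes called in PPFP cells, this test called 78 of the 137 raised and 134 of the 185 lowered. The change that picked these genes also enters the difference, so these 2 counts are not separate evidence. Genes with no count in any EV library, such as Aqp7, have no usable error in it and could not be called. Without the block for the replicate the interaction called 46 and 51 genes.

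**Figure D5:**
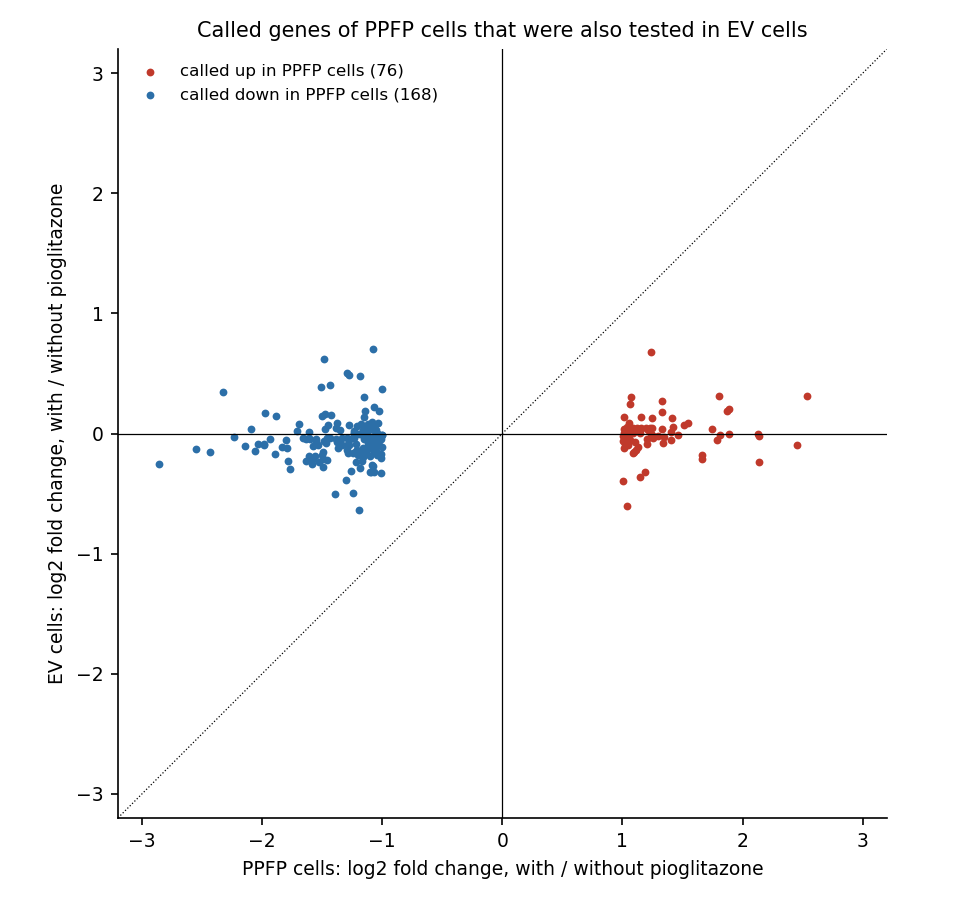
Log2 fold change with versus without pioglitazone in EV cells against that in PPFP cells for the called genes of PPFP cells that were also tested in EV cells, 76 up in red and 168 down in blue; the dotted line marks equal responses. On the EV axis all points lie between -0.64 and 0.70, around 0.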

How the data were processed

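PCCL3 cells expressing the human PAX8-PPARG fusion (PPFP) or carrying the empty vector (EV) were compared with and without pioglitazone, in 3 independent experiments. The authors deposited raw counts of read pairs per gene; per their methods, RNA libraries that do not keep strand were aligned to the rat rn4 assembly with TopHat2 2.0.11 and counted with HTSeq 0.6.1p1 in intersection-strict mode, so that reads spanning 2 genes are lost. The deposited table held 16816 genes, of which 3447 had no count in any RNA library, and no value column was left unused. The peak and signal files of the chromatin experiment were not used here, because no rn4 annotation was among the sources used here.

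Genes were filtered by filterByExpr, scaled by TMM and tested with the edgeR 4.0.16 quasi-likelihood test in R 4.3.3, with the replicate number as a block and Benjamini-Hochberg adjustment over all genes tested. Genes past 2-fold with an adjusted p under 0.05 were called. The SE was obtained by dividing the log2 fold change by the square root of F. The numbers were taken to pair libraries of 1 experiment, although the labels give only the number. Deviations from the group means correlated at 0.876, 0.679 and 0.642 within the 3 PPFP pairs. Libraries 2 and 3 also correlated across numbers (0.729 and 0.586). The residual degrees of freedom were 2, so the test leans on the spread shared across genes. A floor of 3 counts per library was used, and counting intervals cover counting error only. Fits were tested on simulated data.

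The members and gene lists were chosen with earlier results of these data known. Named genes were the 12 largest changes in each direction with a mean of at least 1 CPM and 1 direction in all pairs, the 8 called genes with the highest mean CPM in each direction, up to 4 called members of each list, the 6 with the smallest adjusted p of the difference between lines, and Pparg and Pax8, shown as far as they add to a group. List members that changed by less than 2-fold were named as examples after their values were seen. Some members of the lists are counted but not reported here by name. Promoters were RefSeq's, on GRCr8, matched by symbol. Alternatives were no block, DESeq2 1.42.0, edgeR's exact test, other scalings and filters, all 12 libraries in 1 fit, and leaving out each replicate.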

Additional observations from a re-analysis of the deposited data

Results flagged for a closer look

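The response to pioglitazone differed between PPFP and EV cells by the test of the difference itself, with 102 genes over 2-fold more positive and 167 over 2-fold more negative in PPFP cells. These counts depend on the block, with 46 and 51 genes without a replicate block and 43 and 55 with a block shared by both lines. The 6 genes with the smallest adjusted p of that difference among genes changed in PPFP cells were the following, each given as the PPFP minus the EV log2 fold change with its SE. Plin2, the droplet coat, had 1.88 ± 0.05 (adjusted p = 2e-10) and Gpd1 had 1.69 ± 0.06 (adjusted p = 7.6e-10). Phospho1 had 2.14 ± 0.07 (adjusted p = 3.4e-10) and Crat had 1.28 ± 0.05 (adjusted p = 8.5e-10). On the negative side Fam163a had -2.22 ± 0.08 (adjusted p = 7.6e-10) and the proteoglycan Prelp had -1.45 ± 0.05 (adjusted p = 6.6e-10). The EV log2 fold changes of these 6 genes lay between -0.09 (Prelp) and 0.04 (Gpd1). A change in PPFP cells was part of how they were picked, and it also enters the difference.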

How the results depend on the processing

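The counts of called genes in PPFP cells stayed within 1.5 times of 137 and 185 under every alternative run. With no fold limit, 5198 genes passed in PPFP cells, but 1486 with no replicate block and 1297 with the exact test, which takes no block; the cause was not tested. For EV cells 1 gene passed at any fold, against 0 with no replicate block, 8 with DESeq2 and 3 with no filter. When 1 replicate was left out, EV genes at any fold ranged from 1 to 227 (the latter without replicate 2, and 12 without replicate 3) and EV genes called down from 0 to 1. The difference between lines, 102 up, 167 down and 3594 at any fold, became 46, 51 and 277 with no replicate block and 43, 55 and 338 with a block shared by both lines. It became 2327 at any fold with DESeq2, 97 down with at least 10 counts in every library, and 2332 to 3054 at any fold when a replicate was left out. The promoter match was in 0%, 0% and 0.402% of genes called up, called down and tested with at most 1 mismatch, and in 24.8%, 20.7% and 19.3% with at most 3. With libraries scaled by size alone the share of called genes that rose was 36.4%, against 42.6%. Of 120 named genes 89 kept their call in every alternative that gave them a value, no direction reversed, and 16 lost the call without the pairing. Of 27 lists with a median over 0.1 from 0, 0 changed sign. Each comparison rests on 3 pairs, and genes under about 1 CPM rest on few reads, which limits what could be detected there.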
